A study of Mus musculus with 24 samples.

Results

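The 9 megakaryocyte and platelet genes Pf4, Ppbp, Vwf, Selp, Treml1, Gp1bb, Gp9, Itga2b and Itgb3 were followed in LSKs (Lin-Sca-1+c-Kit+ cells, the bone marrow fraction that holds hematopoietic stem cells and early multipotent progenitors). The members were taken by symbol from the table of read counts, where all 9 listed symbols were found among 24091 genes. All 9 passed the filter on low counts, as did 13520 genes in all.

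Megakaryocytes are large marrow cells that shed platelets. Their α-granules hold the chemokines encoded by Pf4 and Ppbp, the adhesive protein encoded by Vwf, and receptors that reach the surface on activation, among them P-selectin (Selp) and TLT-1 (Treml1). Platelets bind von Willebrand factor through the GPIb-IX-V complex, of which Gp1bb and Gp9 encode subunits, and bind fibrinogen through the integrin αIIbβ3, encoded by Itga2b and Itgb3. Several of these genes are also read at low level in stem cells and in progenitors primed for the megakaryocyte lineage, and Vwf and Selp are active in endothelium as well.

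LSKs came from 24 mice in 4 groups of 6, each with 3 females and 3 males, and each library came from 1 mouse. WT mice carried intact miR-142, and miR-142 KO mice were miR-142-/- in all tissues. CP CML mice were miR-142+/+ with the BCR-ABL transgene, and BC CML mice were miR-142-/- with the same transgene. BCR-ABL was switched on by stopping tetracycline (tet-off, SCLtTA/BCR-ABL on the B6 background) 2 weeks before the cells were sorted. The SCL promoter drives the transactivator, so BCR-ABL is made in cells where that promoter is active, and the CML mice were matched for age, gender, SCL level and BCR-ABL level. No ages are given in the labels used here. Total counts ran from 16267965 to 24687077 per library. The read count over Mir142 was 94 to 127 in WT and 68 to 153 in CP CML libraries. It was 0 in each of the 12 libraries from miR-142-/- mice, where by counting error alone as many as 3 counts remain possible.

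A single library stood apart. Profiles were compared across all tested genes after each gene's mean log2 level over the 24 libraries was subtracted, so r describes departures from that mean. In this measure miR-142 KO replicate 3, a female, correlated with the mean of the other miR-142 KO libraries at r = 0.21. With the BC CML mean it correlated at r = 0.23, whereas the other 5 miR-142 KO libraries correlated with their own group at 0.46 to 0.61. The remaining 23 libraries were each nearest to their own group. Results that rest on this library are given with and without it. In bulk samples fewer cells of a type and less RNA per cell cannot be told apart.

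The mature products of the deleted locus are shown because they define the groups. Both lie on chromosome 11 of GRCm38.p6, + strand, at chr11:87756867-87756887 (5p) and chr11:87756903-87756925 (3p), with the seed (bases 2 to 8) in capitals, as RefSeq gives them.
mmu-miR-142a-5p: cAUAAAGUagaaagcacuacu
mmu-miR-142a-3p: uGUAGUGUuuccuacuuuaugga
The complement of the 5p seed, ACTTTAT, was found in the longest annotated 3′ UTR (GENCODE vM21) of 15.9% of 12618 tested genes, and that of the 3p seed, ACACTAC, in 6.97%. Neither was found in the 3′ UTR of any of the 9 members, whose lengths ran from 123 bases in Pf4 to 3331 bases in Itgb3 beside a median of 1178.5 bases over the genes searched.

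Promoter sequence was matched for 7 of the 9 members, all but Vwf and Itgb3. The stretch just before the annotated start is shown for Itga2b, which was high in 3 groups. It is also shown for Pf4, Ppbp and Gp1bb, which were high in most miR-142 KO libraries and lower in both CML groups than in miR-142 KO. These stretches are written 5′ to 3′ on the gene's strand, from RefSeq on GRCm38.p6, with ETS-type letters (GGAAG) and GATA-type letters (AGATAA or TGATAA, or the same ending in G) on either strand in capitals. The stretches are chr11:102469884-102470008 (- strand) for Itga2b, chr5:90772310-90772434 (+) for Pf4, chr5:90768393-90768517 (+) for Ppbp and chr16:18622404-18622528 (- strand) for Gp1bb.
Itga2b: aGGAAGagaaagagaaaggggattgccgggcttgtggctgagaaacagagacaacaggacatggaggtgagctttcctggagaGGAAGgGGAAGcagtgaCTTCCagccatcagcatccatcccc
Pf4: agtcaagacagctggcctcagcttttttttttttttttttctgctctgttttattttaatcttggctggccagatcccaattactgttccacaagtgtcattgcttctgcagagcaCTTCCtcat
Ppbp: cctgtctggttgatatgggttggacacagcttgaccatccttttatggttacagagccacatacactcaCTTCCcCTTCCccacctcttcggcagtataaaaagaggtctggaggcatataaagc
Gp1bb: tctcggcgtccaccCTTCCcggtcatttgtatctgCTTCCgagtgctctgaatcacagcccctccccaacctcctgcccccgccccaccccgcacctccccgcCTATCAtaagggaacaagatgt
In the 250 bases before the start, the ETS-type letters were present in 7 of 7 members and in 64.1% of 32851 promoters, and the GATA-type letters in 1 of 7 members (Gp1bb) and in 26.5% of promoters. Itga2b held 4 matches to the ETS-type letters. A match of letters is a description and not a bound site.

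Levels are given as CPM, read counts relative to a library size scaled by TMM. Pf4, a chemokine of platelet granules (mm10 chr5:90772435-90773383, + strand), had a lowest, median and highest level of 9.72, 14.2 and 26.5 CPM in WT, 3.54, 54.6 and 98.4 CPM in miR-142 KO, 4.39, 6.95 and 8.38 CPM in CP CML, and 3.30, 5.26 and 9.03 CPM in BC CML LSKs. All WT libraries were above all CML libraries, and the miR-142 KO libraries reached from the CML range to far above WT. Ppbp, the gene of a neutrophil-attracting chemokine that lies 2.37 kb upstream of Pf4 (chr5:90768518-90770062, + strand), showed the same order of group means at a lower level. Its lowest, median and highest levels were 0.616, 1.498 and 2.85 CPM in WT, 0.493, 5.31 and 15.3 CPM in miR-142 KO, 0.416, 0.879 and 1.66 CPM in CP CML, and 0.0907, 0.492 and 1.06 CPM in BC CML. All groups overlapped. The lowest Ppbp value, in BC CML replicate 4, stood on 2 reads, under the limit that a count of 0 allows.

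Vwf (chr6:125532587-125686679, + strand) ran at 27.7, 37.2 and 60.6 CPM in WT, 8.54, 87.6 and 119.8 CPM in miR-142 KO, 15.4, 20.9 and 30.2 CPM in CP CML, and 12.2, 18.1 and 23.8 CPM in BC CML. A single CP CML library reached into the WT range, and no BC CML library did. Treml1, the gene of the granule receptor TLT-1 (chr17:48359916-48367176, + strand), ran at 2.07, 3.34 and 5.30 CPM in WT, 0.708, 5.95 and 8.22 CPM in miR-142 KO, 1.03, 1.36 and 2.09 CPM in CP CML, and 0.997, 1.47 and 1.96 CPM in BC CML. Its CML libraries sat at or under the lowest WT library, apart from a CP CML library at 2.09 CPM. For Pf4, Vwf and Treml1 the 2 CML means were neighbours at the bottom of the order and did not differ past the threshold (edgeR adjusted p = 0.69, 0.69 and 0.97).

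Selp, the leukocyte-binding receptor of activated platelets (chr1:164115264-164150026, + strand), had another order. Its lowest, median and highest levels were 19.3, 37.0 and 82.5 CPM in WT, 120.4, 142.1 and 303 CPM among miR-142 KO mice, 45.1, 62.6 and 97.4 CPM with CP CML and 107, 129 and 155 CPM with BC CML. Every library without miR-142 was above every library with it. At its 3′ end Selp shares 438 exonic bases with the antisense gene Gm16548, whose counts were 0 to 15 beside 448 to 6852 for Selp. The strand setting of the counting is not given in the sources used here.

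Of the von Willebrand factor receptor subunits, Gp1bb (chr16:18620319-18622403, - strand) was low, at 0.628, 1.14 and 2.17 CPM in WT, 0.752, 3.82 and 6.45 CPM in miR-142 KO, 0.416, 0.941 and 1.65 CPM in CP CML, and 0.453, 1.15 and 1.71 CPM in BC CML. WT, CP CML and BC CML libraries lay in one range, with 9 to 53 reads each. Gp1bb overlaps the septin gene Sept5 on the same strand, over 593 of the 2085 bases of its span in the deposited coordinates and 91.1% of its exonic bases in GENCODE vM21, and Sept5 also rose in miR-142 KO over WT (log2 fold change 1.19 ± 0.30 SE, edgeR adjusted p = 0.0030). Reads of the pair cannot be told apart in the overlap, so the Gp1bb values are uncertain. Gp9 (chr6:87778136-87779762, + strand) varied little, at 4.44, 5.87 and 6.36 CPM in WT, 6.72, 7.05 and 8.58 CPM in miR-142 KO, 3.42, 4.62 and 5.50 CPM in CP CML, and 2.63, 3.64 and 4.44 CPM in BC CML. All miR-142 KO libraries were above all others.

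The integrin genes both lie on chromosome 11, as does Mir142, but far from it. Itga2b lies 14696 kb from Mir142, and Itgb3 a further 2138 kb beyond Itga2b. Itga2b (chr11:102453297-102469883, - strand), which encodes CD41, had 101, 119 and 150 CPM in WT, 178, 236 and 334 CPM among miR-142 KO mice, 188, 209 and 271 CPM with CP CML and 192, 231 and 295 CPM with BC CML. WT libraries were all below the other 18, and the other 3 groups shared a range. Itgb3, encoding CD61 (chr11:104608000-104670471, + strand), had 22.5, 31.6 and 47.2 CPM in WT, 61.4, 117 and 147 CPM in miR-142 KO, 45.1, 55.4 and 78.0 CPM in CP CML, and 67.2, 74.5 and 107 CPM in BC CML. The miR-142 KO libraries were all above WT, while CP CML overlapped WT at its low end. In the order of its group means (miR-142 KO, BC CML, CP CML, WT), the upper 2 steps missed the threshold (edgeR adjusted p = 0.050 and 0.055) and the step from CP CML to WT passed it (0.0037).

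**Figure D1:**
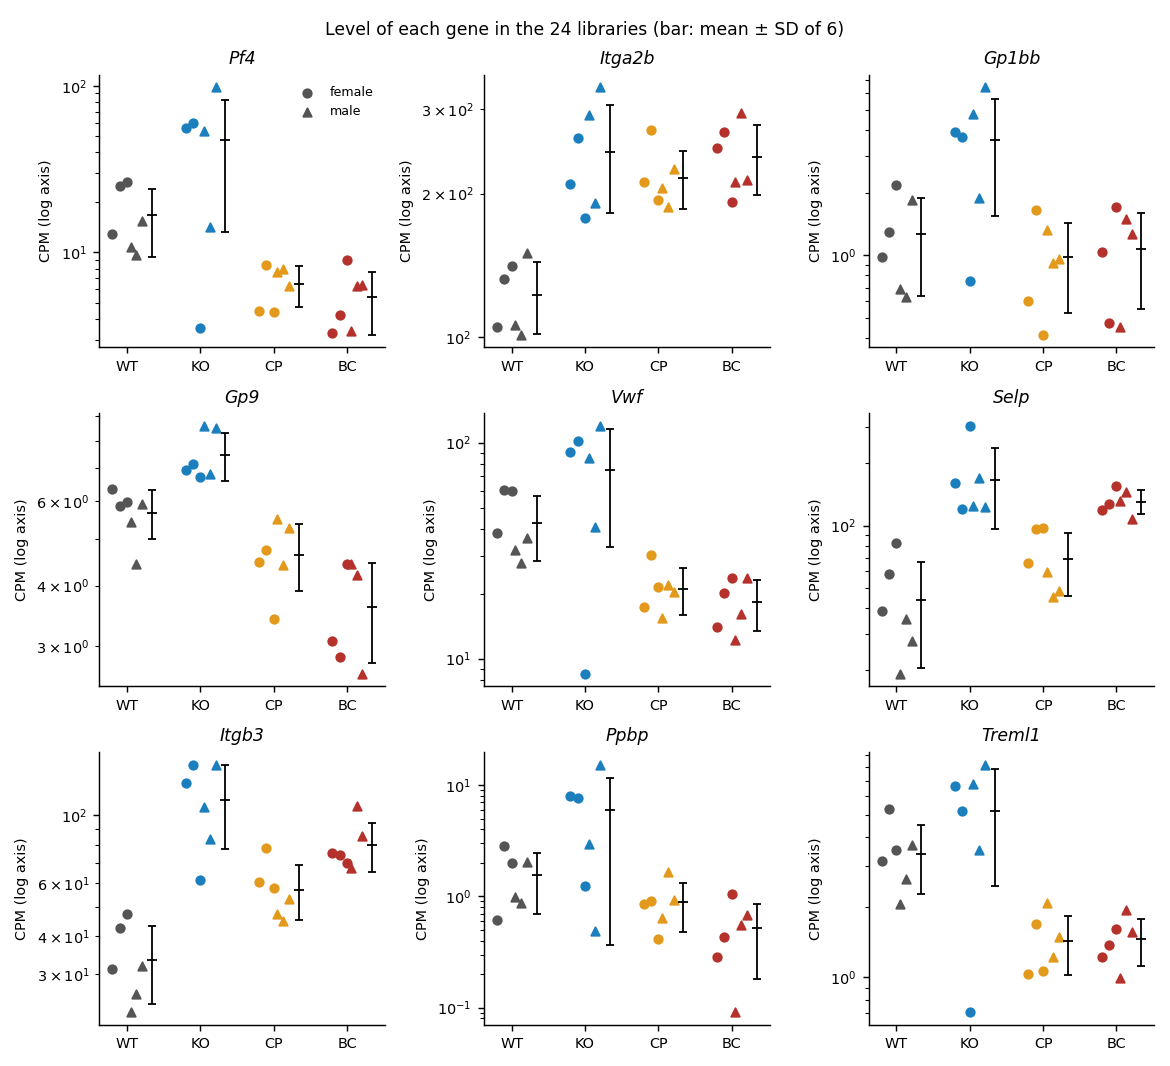
Level of each of the 9 genes in CPM (log axis) in the 24 libraries, by group (KO is miR-142 KO, CP and BC are the CML groups), with circles for females, triangles for males and a bar for the mean ± SD of 6. Pf4, Vwf and Treml1 were low in both CML groups, Itga2b was lowest in WT, and a miR-142 KO female lay far below its group for Pf4 (3.54 CPM) and Vwf (8.54 CPM).

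Between genes, levels are compared only per kilobase of the deposited gene length. Averaged over the 24 libraries, Pf4 had 32.6 CPM per kb, Itga2b 30.1 and Selp 29.9, followed by Itgb3 at 12.01, Gp9 at 6.60, Vwf at 2.83, Ppbp at 2.07, Treml1 at 2.05 and Gp1bb at 0.829. Within the groups the top place changed. Pf4 led in miR-142 KO LSKs, with 81.3 ± 58.6 CPM per kb (SD, n = 6) beside 48.7 ± 20.5 for Selp and 35.8 ± 9.09 for Itga2b. In BC CML LSKs Pf4 was at 9.29 ± 3.796 CPM per kb beside 38.2 ± 5.02 for Selp and 34.96 ± 5.78 for Itga2b.

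Loss of miR-142 without BCR-ABL was assessed by comparing miR-142 KO with WT LSKs. Here 7 members rose and none fell past the threshold. Itgb3 rose 3.34-fold (log2 fold change 1.74 ± 0.20 SE, edgeR adjusted p = 5.8e-07), Selp 3.82-fold (1.93 ± 0.29, 1.5e-05) and Itga2b 1.99-fold (0.995 ± 0.15, 1.2e-05). Among the granule chemokines Ppbp rose 3.79-fold (1.92 ± 0.57, 0.011) and Pf4 2.84-fold (1.51 ± 0.46, 0.013), and among the receptor subunits Gp1bb rose 2.82-fold (1.498 ± 0.43, 0.0081) and Gp9 1.32-fold (0.40 ± 0.14, 0.029). Vwf (log2 fold change 0.81 ± 0.36) and Treml1 (0.61 ± 0.34) missed the threshold, with edgeR adjusted p of 0.080 and 0.16. The 7 called of 9 stand beside 36.3% of all tested genes called in this comparison, 19.9% higher and 16.4% lower. With upper quartile scaling the share of higher genes among those called went from 54.7% to 42.0%. Groups did not overlap for 4 members (Itga2b, Gp9, Selp and Itgb3), beside 14.5% of all genes. The median log2 fold change was 1.498 over the members and 0.01 over all tested genes.

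Single miR-142 KO mice decided some of these calls. Without replicate 3 all 9 members rose, with Vwf at 1.06 (edgeR adjusted p = 0.0016) and Treml1 at 0.85 (0.0070) on the log2 scale, and Vwf also passed without replicate 5 (0.95, 0.048). Without replicate 6, where most of the granule genes peaked, 4 members remained called, and Pf4 (1.17, 0.050), Ppbp (1.38, 0.054) and Gp9 (0.36, 0.063) missed the threshold. The call for Gp9 was also lost without WT replicate 4 (0.39, 0.054), WT replicate 5 (0.34, 0.074) or miR-142 KO replicate 4 (0.35, 0.064), and with upper quartile scaling (0.35, 0.057). Pf4 missed the threshold when the WT and miR-142 KO samples were fitted alone (1.499, 0.065).

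The effect of BCR-ABL with miR-142 intact was assessed by comparing CP CML with WT LSKs, and here the members split. The integrin genes rose, Itga2b 1.76-fold (log2 fold change 0.82 ± 0.15 SE, edgeR adjusted p = 0.00011) and Itgb3 1.70-fold (0.76 ± 0.20, 0.0037). The granule genes that fell were Pf4 with a log2 fold change of -1.35 ± 0.48 (0.024), Treml1 with -1.24 ± 0.36 (0.0070) and Vwf with -1.003 ± 0.37 (0.029). Selp (0.66 ± 0.28, 0.062), Gp9 (-0.29 ± 0.14, 0.10), Gp1bb (-0.35 ± 0.45, 0.54) and Ppbp (-0.79 ± 0.61, 0.30) missed the threshold in edgeR. In this comparison 45.4% of all tested genes were called, 22.5% higher and 22.9% lower, so that 5 of 9 members is near the background. Groups did not overlap for Pf4 (lower) and Itga2b (higher), beside 21.8% of all genes.

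The falls of Pf4 and Vwf were close to the threshold. They were lost together without WT replicate 2 (log2 fold changes -1.19 and -0.86, edgeR adjusted p = 0.058 and 0.073), WT replicate 3 (-1.16 and -0.87, 0.059 and 0.067), CP CML replicate 1 (-1.25 and -0.94, 0.052 and 0.060) or CP CML replicate 3 (-1.25 and -0.99, 0.056 and 0.051), and that of Vwf also without CP CML replicate 4 (-0.91, 0.068). Selp passed the threshold without WT replicate 2 (0.77, 0.043), WT replicate 3 (0.95, 0.0057), miR-142 KO replicate 3 (0.67, 0.034), CP CML replicate 5 (0.76, 0.037) or CP CML replicate 6 (0.75, 0.041). It also passed with sex as a covariate (0.69, 0.017) and with the likelihood ratio test (0.66, 0.045).

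Loss of miR-142 in the presence of BCR-ABL was assessed by comparing BC CML with CP CML LSKs. Selp rose 1.90-fold (log2 fold change 0.93 ± 0.28 SE, edgeR adjusted p = 0.012), with every BC CML library above every CP CML library. Gp9 was lower (-0.36 ± 0.14, 0.048) and lay at the threshold. The other 7 missed it. Itgb3 was at 0.49 ± 0.20 (0.055), Itga2b at 0.14 ± 0.14 (0.45), Gp1bb at 0.11 ± 0.45 (0.87), Treml1 at 0.02 ± 0.37 (0.97), Vwf at -0.21 ± 0.37 (0.69), Pf4 at -0.27 ± 0.49 (0.69) and Ppbp at -0.81 ± 0.67 (0.35) in edgeR. The 95% interval of the difference ran from -1.29 to 0.75 for Pf4 and from -0.97 to 0.56 for Vwf. Differences within these intervals are not excluded. Of all tested genes 38.0% were called, 20.4% higher and 17.6% lower, and groups did not overlap for 20.7%. With upper quartile scaling the share of higher genes among those called went from 53.7% to 42.4%. The 2 called of 9 and the single member without overlap lie below those shares.

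The call for Gp9 in that comparison was lost without any of 10 single mice, with edgeR adjusted p up to 0.10, namely WT replicates 1 (0.051) and 6 (0.053), CP CML replicates 1 (0.052), 2 (0.059), 4 (0.096), 5 (0.052) and 6 (0.091), and BC CML replicates 1 (0.093), 2 (0.10) and 6 (0.10). Itgb3 passed without miR-142 KO replicate 3 (log2 fold change 0.47, 0.033) or CP CML replicate 2 (0.58, 0.030). Under other settings Itgb3 was called by DESeq2 (0.47, 0.041), by the likelihood ratio test (0.49, 0.042), with sex as a covariate (0.51, 0.043) and with the CP CML and BC CML samples fitted alone (0.47, 0.011). Gp9 missed the threshold in edgeR with no filter on low counts (-0.37, adjusted p = 0.067), with the likelihood ratio test (-0.37, 0.052) and in the fit of those samples alone (-0.38, 0.077).

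BCR-ABL on the miR-142-/- background was assessed by comparing BC CML with miR-142 KO LSKs. There 6 members fell, led by the granule chemokines. Ppbp had a log2 fold change of -3.52 ± 0.64 SE (edgeR adjusted p = 0.00024) and Pf4 of -3.13 ± 0.50 (5.8e-05), which are 11.5-fold and 8.76-fold lower. Vwf followed with -2.02 ± 0.38 (0.00029), Treml1 with -1.83 ± 0.36 (0.00044), Gp1bb with -1.74 ± 0.43 (0.0031) and Gp9 with -1.05 ± 0.14 (9.0e-06). Itga2b (-0.04 ± 0.14, 95% interval -0.33 to 0.26), Selp (-0.35 ± 0.28, -0.93 to 0.22) and Itgb3 (-0.49 ± 0.20, -0.90 to -0.08) missed the threshold, with edgeR adjusted p of 0.87, 0.33 and 0.050. Of all tested genes 39.6% were called, 20.3% higher and 19.3% lower. Only Gp9 had groups that did not overlap, beside 10.6% of all genes, since the lowest miR-142 KO library reached the BC CML range for the other 5 that fell. Without miR-142 KO replicate 3 the same 6 members fell, Pf4 with a log2 fold change of -3.38 and Vwf with -2.27, and Itgb3 fell as well (-0.63, edgeR adjusted p = 0.0065). Itgb3 also passed when any of 9 other mice was left out, with adjusted p of 0.023 to 0.04979 in edgeR, namely WT replicates 2, 3, 4 and 5, miR-142 KO replicate 5, CP CML replicates 2, 4 and 5, and BC CML replicate 5.

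**Figure D2:**
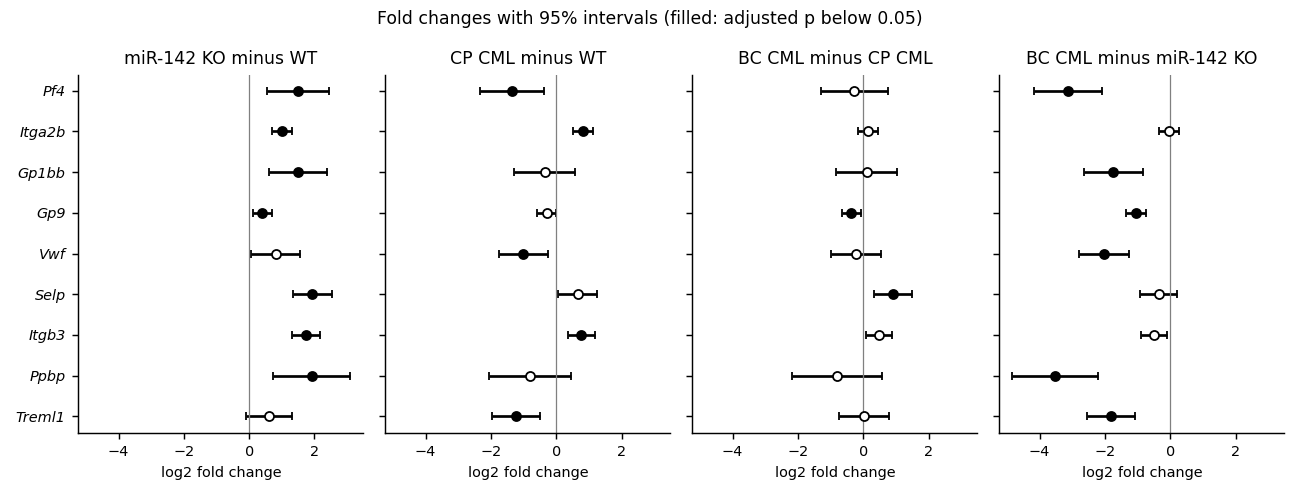
Log2 fold change of each member in 4 comparisons, with 95% intervals from the edgeR fit (unadjusted), filled where the adjusted p was below 0.05. In miR-142 KO over WT 7 members rose, 6 fell in BC CML against miR-142 KO, and most intervals for BC CML against CP CML include 0.

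Remaining pairs of groups share these libraries and are given as values. CP CML was below miR-142 KO for 8 members, all but Itga2b, beside 36.6% of all tested genes called. BC CML differed from WT for 8 members, all but Gp1bb, beside 65.0% of genes. Against WT the integrin genes and Selp were higher in BC CML (log2 fold changes 0.96 for Itga2b, 1.25 for Itgb3 and 1.58 for Selp) while Pf4 (-1.62), Ppbp (-1.60), Treml1 (-1.22), Vwf (-1.21) and Gp9 (-0.65) were lower.

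Whether the effect of miR-142 loss differed with and without BCR-ABL was tested as an interaction, the change from CP CML to BC CML minus the change from WT to miR-142 KO. It was below 0 for all 9 members and passed the threshold for 3, beside 3.99% of all tested genes. Itgb3 had -1.25 ± 0.28 SE on the log2 scale (edgeR adjusted p = 0.013), Itga2b -0.85 ± 0.20 (0.020) and Gp9 -0.76 ± 0.20 (0.031). Ppbp (-2.73 ± 0.87, 0.080), Pf4 (-1.78 ± 0.67, 0.14), Selp (-1.01 ± 0.40, 0.16), Gp1bb (-1.39 ± 0.62, 0.22), Vwf (-1.02 ± 0.52, 0.28) and Treml1 (-0.59 ± 0.50, 0.56) missed it in edgeR. Without miR-142 KO replicate 3 the count rose to 6, with Pf4 (-2.05, 0.020), Vwf (-1.28, 0.030) and Ppbp (-2.96, 0.038) added. Ppbp also passed with DESeq2 (-2.74, 0.022), with the likelihood ratio test (-2.72, 0.032) and without miR-142 KO replicate 5 (-2.997, 0.024) and Selp without WT replicate 3 (-1.31, 0.033), and Gp9 missed the threshold without WT replicate 5, miR-142 KO replicate 4, CP CML replicate 4 or BC CML replicate 1 (-0.74 to -0.72, edgeR adjusted p = 0.050 to 0.054).

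Females and males were compared within groups. No member was called by edgeR, 1 had an unadjusted p under 0.05, and 0.895% of all tested genes were called. That member was Selp (log2 fold change 0.61 ± 0.15 SE, female minus male, edgeR adjusted p = 0.053), which DESeq2 and edgeR's likelihood ratio test each called. Its mean was higher in females in 4 of 4 groups, at 59.7 and 27.5 CPM in WT, 195 and 139 CPM among miR-142 KO mice, 86.6 and 50.9 CPM with CP CML and 133 and 128 CPM with BC CML (females and males). In WT and CP CML every female was above every male.

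For 7 members the spread among libraries, as the SD of log2 CPM, was greatest in the miR-142 KO group, while Selp varied most in WT and Gp9 in BC CML. In miR-142 KO LSKs the highest library exceeded the lowest by 31.0-fold for Ppbp, 27.8-fold for Pf4, 14.03-fold for Vwf and 11.6-fold for Treml1, but by 1.28-fold for Gp9 and 1.88-fold for Itga2b. Without replicate 3 the ratio was 6.89-fold for Pf4, 2.94-fold for Vwf, 2.33-fold for Treml1 and 3.42-fold for Gp1bb (8.58-fold with it), and that of Ppbp was the same. The SD of log2 CPM among the 6 libraries was 1.78 for Pf4 and 1.79 for Ppbp beside a median of 0.16 over 12268 genes. Replicate 3 was lowest for 7 members (Pf4, Itga2b, Gp1bb, Gp9, Vwf, Itgb3 and Treml1) and highest for Selp, at 303 CPM. Replicate 6, a male, was highest for 6 members (Pf4, Itga2b, Gp1bb, Vwf, Ppbp and Treml1). Replicate 5, another male, had the lowest Ppbp (0.493 CPM) and a Pf4 level of 14.3 CPM, within the WT range. Replicate 3 also had the lowest levels in its group of Gata1 (13.7 CPM, others 22.9 to 35.9) and Klf1, an erythroid transcription factor (0.531 CPM, others 3.32 to 8.35).

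**Figure D3:**
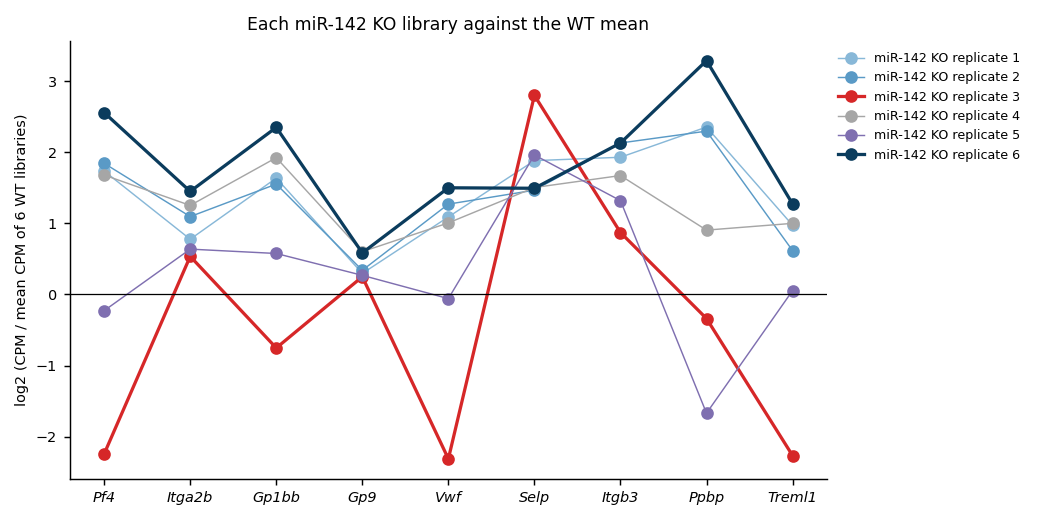
Log2 ratio of each miR-142 KO library's level to the mean of the 6 WT libraries, with a line for each mouse across the 9 genes. Replicate 3 lies lowest for 7 genes and highest for Selp (303 CPM), and all 6 libraries lie above the WT mean for Itga2b, Gp9, Selp and Itgb3.

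Genes whose level followed the members most closely were sought among 12259 others with a mean of at least 1 CPM, by Pearson correlation with the mean log2 CPM of the 9 members over 24 libraries. The 5 with the highest r were Ache (0.96), the acetylcholinesterase gene, Myom1 (0.92), which encodes a sarcomere protein, F2rl2 (0.92), a protease-activated receptor gene, Reep2 (0.90) and Gata1 (0.90), the transcription factor of megakaryocytes and erythroid cells. Their Spearman rho was 0.77 to 0.88. With the 2 libraries farthest from the median (miR-142 KO replicates 1 and 6) left out, r was 0.86 to 0.95. After group means were removed the 5 highest were Myom1 (0.96), F2rl2 (0.94), Ache (0.92), Pde10a (0.92) and Sdpr (0.91), with rho of 0.87 to 0.95 and r of 0.84 to 0.93 without miR-142 KO replicates 3 and 6. The points share library and depth, and these values are descriptions. Within groups Pf4 (0.97), Gp1bb (0.91) and Vwf (0.90) followed the mean of the members, of which each is a part, while Gp9 (0.37) and Selp (-0.07) did not.

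Other genes of the megakaryocyte and platelet pathway were taken from 5 lists, of which 70 genes were tested. In miR-142 KO against WT 27 rose and 11 fell, in CP CML against WT 14 rose and 20 fell, in BC CML against CP CML 11 rose and 13 fell, and in BC CML against miR-142 KO 9 rose and 31 fell. The shares called were 54.3%, 48.6%, 34.3% and 57.1%, beside 36.3%, 45.4%, 38.0% and 39.6% of all tested genes, so that the share was near the background in CP CML against WT and below it in BC CML against CP CML. In the interaction 1 rose and 5 fell, 8.57% beside 3.99% of all tested genes.

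Among 17 tested genes for surface receptors and adhesion, 7 rose and 6 fell in miR-142 KO over WT, and 2 rose and 6 fell in BC CML against miR-142 KO. In CP CML against WT 2 rose and 6 fell, and in BC CML against CP CML 4 rose and 3 fell. Of all tested genes 36.3%, 39.6%, 45.4% and 38.0% were called in these comparisons. Gp1ba, the ligand-binding partner of Gp1bb and Gp9, did not follow them. It had 6.87 ± 1.60 CPM in WT, 18.04 ± 5.86 with miR-142 KO, 16.8 ± 3.75 with CP CML and 37.2 ± 7.62 with BC CML (SD, n = 6), and rose in all 4 comparisons (log2 fold changes 1.04 to 1.39, largest edgeR adjusted p = 0.00037). Gp5, which encodes the last subunit of the complex, was at 9.50 ± 2.12, 16.7 ± 7.09, 5.75 ± 0.97 and 7.72 ± 1.23 CPM in the same order. It rose in miR-142 KO (0.82, edgeR adjusted p = 0.0061) and fell in CP CML against WT (-0.72, 0.013) and in BC CML against miR-142 KO (-1.12, 0.00061). The collagen receptor gene Gp6 was nearly absent, with at most 0.310 CPM in a library, and was not tested. Cd9, a tetraspanin gene, rose in both comparisons of miR-142 loss (0.77 and 0.89, edgeR adjusted p = 2.7e-05 and 5.2e-06).

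Among genes of signalling downstream of thrombopoietin, the growth factor of the lineage, 4 were tested, and Thpo, which encodes the factor itself, was at 0 in every library. Jak2, a kinase of this signalling, fell in both comparisons of BCR-ABL (-0.22 in CP CML against WT and -0.41 in BC CML against miR-142 KO, edgeR adjusted p = 0.033 and 0.00059). Sh2b3, an inhibitor of this signalling, rose in both comparisons of miR-142 loss (0.35 and 0.38, edgeR adjusted p = 0.00023 and 0.00012).

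Of 18 genes for granule proteins and granule formation, 8 rose and 2 fell in CP CML against WT, and 6 rose and 1 fell in miR-142 KO over WT. In BC CML against CP CML 3 rose and 2 fell, and in BC CML against miR-142 KO 6 rose and 4 fell. Of all tested genes 45.4%, 36.3%, 38.0% and 39.6% were called in these comparisons. F13a1, the factor XIII A-chain gene, had 90.2 ± 69.1 CPM in WT, 332 ± 141 with miR-142 KO, 440 ± 87.6 with CP CML and 830 ± 62.1 with BC CML (SD, n = 6). Srgn, a granule proteoglycan gene, went from 501 ± 91.4 to 733 ± 61.4, 636 ± 65.9 and 1208 ± 193 CPM in the same order, and rose in all 4 comparisons (largest edgeR adjusted p = 0.013). F13a1 and Srgn are also active in myeloid cells and mast cells. The summed level of 10 mast cell and basophil genes was 92.9 to 617 CPM for WT libraries, 289 to 2858 for miR-142 KO, 2094 to 4202 for CP CML and 5836 to 12596 for BC CML. By group median this sum had the order of F13a1, while Srgn was higher in miR-142 KO than in CP CML. The part of these cells in these results was not tested. Serpine2, a protease inhibitor gene, rose in miR-142 KO over WT (1.74, edgeR adjusted p = 0.00011).

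Among 17 tested genes of platelet formation, cytoskeleton and activation, 8 rose and 3 fell in miR-142 KO over WT, and 1 rose and 10 fell in BC CML against miR-142 KO. In CP CML against WT 2 rose and 4 fell, and in BC CML against CP CML 2 rose and 3 fell. Of all tested genes 36.3%, 39.6%, 45.4% and 38.0% were called in these comparisons. Tubb1, the platelet-specific β-tubulin gene, was low, at 1.30 ± 0.48 CPM in WT, 1.34 ± 0.50 with miR-142 KO, 0.542 ± 0.17 with CP CML and 0.275 ± 0.16 with BC CML (SD, n = 6). It fell in CP CML against WT (-1.26, edgeR adjusted p = 0.0038) and in BC CML against miR-142 KO (-2.25, 5.9e-05). Fermt3, the gene of kindlin-3, an activator of integrins, rose in miR-142 KO over WT (0.27, 6.7e-05) and had an interaction of -0.26 (edgeR adjusted p = 0.023). Gng11, the gene of a G protein γ subunit, fell in all 4 comparisons (-1.92 to -0.54, largest edgeR adjusted p = 0.033).

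Of 14 transcription factor genes, 4 rose and 1 fell in miR-142 KO over WT, and 8 fell in BC CML against miR-142 KO. In CP CML against WT 2 rose and 5 fell, and in BC CML against CP CML 1 rose and 4 fell. Of all tested genes 36.3%, 39.6%, 45.4% and 38.0% were called in these comparisons. The calls of this list in miR-142 KO over WT were thus near the background. Gata1 was at 20.3 ± 4.79 CPM in WT, 27.8 ± 8.88 with miR-142 KO, 13.9 ± 1.53 with CP CML and 16.8 ± 2.05 with BC CML (SD, n = 6), and fell in CP CML against WT (-0.55, edgeR adjusted p = 0.018) and in BC CML against miR-142 KO (-0.73, 0.0032). Zfpm1, its cofactor, fell in those comparisons too (-0.70 and -1.12, edgeR adjusted p = 1.7e-05 and 3.5e-08), as did Nfe2 (-0.39 and -0.32, 0.00035 and 0.0029). Gata2 rose in miR-142 KO (0.56, 0.00063) and in CP CML (0.65, 0.00013) against WT in edgeR, and its interaction was -0.64 (0.028). Runx1 rose in miR-142 KO over WT (0.24, edgeR adjusted p = 0.011). Fli1, an ETS factor of the lineage, was called in none of the 4 comparisons, with log2 fold changes of -0.05 to 0.09 and edgeR adjusted p of 0.19 to 0.97.

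**Figure D4:**
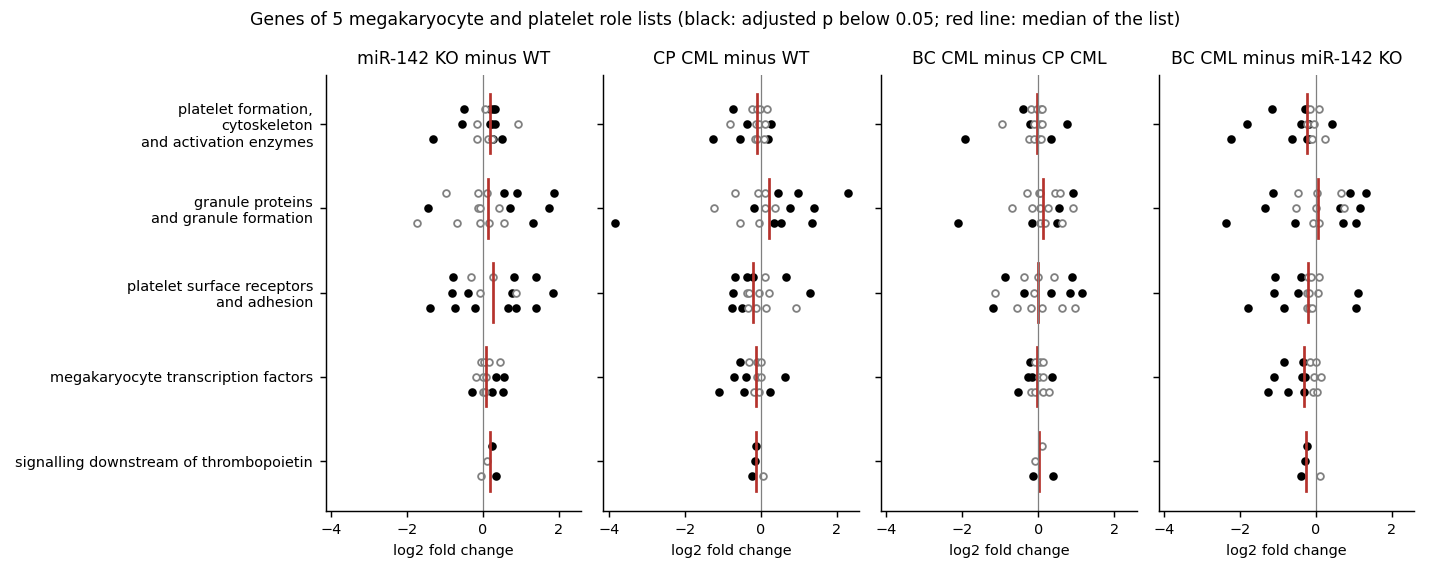
Log2 fold change of the 70 tested genes of 5 pathway lists in 4 comparisons, with black points for adjusted p below 0.05 and a red line at the median of each list. In BC CML against miR-142 KO 31 genes fell and 9 rose, and the points below -1 include Gp5 (-1.12) and Tubb1 (-2.25).

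Markers of other cells moved with the groups as well. The summed level of 14 erythroid genes was 471 to 655 CPM for WT, 169 to 466.3 for miR-142 KO, 213 to 362 for CP CML and 91.9 to 174 for BC CML, and that of 14 stem cell genes from 621 to 1109, 403 to 642, 485 to 614 and 361 to 473 CPM. Neutrophil genes (11) were at 17.0 to 73.7, 62.1 to 230, 61.6 to 97.0 and 66.0 to 156 CPM, B and plasma cell genes (10) at 69.8 to 958, 27.3 to 45.7, 166 to 747 and 28.5 to 40.2 CPM, macrophage genes (11) at 86.2 to 1503, 17.4 to 122, 101 to 680 and 64.3 to 267 CPM, and T and NK cell genes (8) at 57.0 to 100, 117 to 141.8, 72.2 to 91.5 and 83.5 to 123 CPM. Cdh5, which marks endothelium, another source of Vwf and Selp, was at 0.388 to 8.17, 0.510 to 2.34, 0.341 to 2.61 and 0.259 to 0.656 CPM, and 12 endothelial and stromal genes summed to 298 to 420, 388 to 952, 253 to 308 and 376 to 540 CPM. The single genes did not all follow that sum. In miR-142 KO over WT Pecam1 and Stab2 rose and Cdh5, Emcn and Tie1 fell among 11 tested, beside 36.3% of all tested genes called. The median log2 fold change of the 11 was -0.55. Of the gate's own markers, in the same order, Kit was at 784 to 1220, 662 to 972, 974 to 1240 and 746 to 883 CPM. Ly6a was at 30.7 to 49.5, 51.5 to 155, 36.6 to 69.9 and 94.3 to 135 CPM. Ly6a rose in both comparisons of miR-142 loss (1.15 and 1.09, edgeR adjusted p = 0.00020 and 0.00033). Kit rose in CP CML against WT (0.24, edgeR adjusted p = 0.038) and fell in BC CML against CP CML (-0.46, 0.00055). The 9 lineage antigens summed to 482 to 652 CPM over all libraries. No gene of these lists was at 0 in all libraries of a group, and the part of these cells in the members' levels was not tested.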

How the data were processed

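LSK RNA from 24 mice was sequenced on an Illumina NovaSeq6000 from Kapa mRNA HyperPrep libraries. The read counts per gene deposited by the authors are unnormalized. Per the submitters' processing notes and the study's methods, reads were trimmed with Trimmomatic, mapped to mm10 with STAR 2.6.0 and counted with HTSeq 0.11.1, and edgeR was used. The annotation and strand setting are not given in the sources used here. A further deposited column holds gene length in kilobases.

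Counts were fitted in edgeR 4.0.16 under R 4.3.3 with filterByExpr, TMM factors, all 24 libraries in 1 fit and quasi-likelihood tests, with Benjamini-Hochberg adjustment over 13520 genes. "Adjusted p" is this value, and a gene was called below 0.05. The group by sex model gave the female minus male values. CPM are scaled by TMM, and correlations used log2 CPM with a prior count of 2. The members and lists were chosen with earlier results of these data known. Besides the 9 members, up to 5 called genes with the smallest p per list and 8 preset genes were named. An item of the pathway lists is not reported here. The script was tested on simulated data. Alternatives were RLE and upper quartile scaling, DESeq2 1.42.0, a likelihood ratio test, other filters, sex as covariate, the 12 samples compared, a log2 fold limit and each mouse left out. Replicates are separate mice, and all mice in the labels were used, though the study's methods state a smaller number per group. Groups come from the labels, and the replicate numbers only name mice.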

Additional observations from a re-analysis of the deposited data

Results flagged for a closer look

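Of 36 member and group combinations, 1 had a library far from the other 5. Selp in miR-142 KO reached 303 CPM in replicate 3, with a gap to the next library of 0.731 of the group's range (limit 0.625). Chance alone is set to mark about 5 in 100 such groups. The same library was lowest in its group for 7 other members. Without it the rise of Selp in miR-142 KO over WT was 1.68 on the log2 scale (edgeR adjusted p = 3.5e-05).

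The effect of miR-142 loss differed with and without BCR-ABL for 3 members by a test of the difference itself. The change in BC CML over CP CML minus that in miR-142 KO over WT was -0.85 for Itga2b, -0.76 for Gp9 and -1.25 for Itgb3 on the log2 scale. Itga2b and Itgb3 passed this test without any single mouse (largest edgeR adjusted p = 0.038 and 0.026), and Gp9 did not (0.054).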

How the results depend on the processing

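Calls were compared over the 9 members, 4 comparisons and the interaction. Under other settings 369 of 396 values stayed on their side of the threshold, and with a mouse left out 1026 of 1080 did. No called value reversed, 13 and 29 lost their call, and 14 and 25 gained one. Changes of sign in values that were not called are not counted here. Gp1bb in BC CML against CP CML, for instance, ran from -0.08 to 0.31 on the log2 scale with a mouse left out. Counts of called members moved as follows. In BC CML against CP CML the 2 called became 1 with no filter on low counts and 0 with a log2 fold change of at least 1, 3 with DESeq2 and with sex as covariate (Itgb3 gained), and 1 to 3 with a mouse left out, while the likelihood ratio test and the fit of the 12 samples called 2 higher and 0 lower (Itgb3 gained, Gp9 lost). In miR-142 KO against WT the 7 became 5 with the fold limit (Itga2b and Gp9 lost), 6 with upper quartile scaling (Gp9 lost) or the 12 samples (Pf4 lost), and 4 to 9 with a mouse left out (4 without miR-142 KO replicate 6, 9 without replicate 3). In CP CML against WT the 5 became 3 with the fold limit, 6 with the likelihood ratio test and with sex as covariate (Selp gained), and 3 to 6 with a mouse left out. In BC CML against miR-142 KO the 6 became 6 to 7 with a mouse left out. In the interaction the 3 became 1 with the fold limit, 4 with DESeq2 and the likelihood ratio test (Ppbp gained), and 2 to 6 with a mouse left out. Between the sexes the 0 became 1 (Selp) with the likelihood ratio test and with DESeq2.

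Itgb3 in BC CML against miR-142 KO passed the threshold under 6 other settings (log2 fold change -0.53 to -0.48). With upper quartile scaling, higher genes among all called went from 54.7% to 42.0% in miR-142 KO against WT, from 53.7% to 42.4% in BC CML against CP CML and from 50.6% to 40.2% in BC CML against WT, and the median of all genes moved by at most 0.09. With library totals in place of TMM, Treml1 and Ppbp changed places in the order per kilobase. Gp1bb and Ppbp rest on few reads, 9 or fewer in their lowest libraries, which limits what can be detected for them. No paired analysis was possible because the replicate numbers only name mice. Causes of these changes were not tested.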
